A study of Mus musculus with 8 samples.

Results

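The clustered protocadherins are cell adhesion proteins encoded by the alpha, beta and gamma gene clusters, which lie next to each other on mouse chromosome 18. They were taken as the rows of the deposited count table whose gene symbol is Pcdha, Pcdhb or Pcdhg followed by a digit or by a, b or c. That gave 57 of the 18983 genes, with 14 in the alpha cluster, 22 in the beta cluster and 21 in the gamma cluster. In the RefSeq annotation of GRCm38.p6, the build also called mm10, the alpha genes span 36930285 to 37188897, the beta genes 37264998 to 37521419 and the gamma genes 37661775 to 37841873. The family was proposed with results of the diet comparison known, and Pcdhac1, an alpha gene, was its lead gene. The diet values below are therefore a description, with no test read from them.

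Each alpha and gamma gene is made of its own large first exon, which encodes the extracellular cadherin repeats, joined to a few constant exons shared by all genes of that cluster. The beta genes are single exons with no constant part. Neurons choose among the promoters of most of these genes at random, with CTCF and cohesin looping each chosen promoter to a distant enhancer, and the resulting set of surface isoforms lets a neuron tell its own branches from those of others. The last genes of the alpha and gamma clusters, called C-type (Pcdhac1, Pcdhac2, Pcdhgc3, Pcdhgc4 and Pcdhgc5), differ in sequence from the rest and are used more uniformly between neurons.

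The data are poly(A) RNA sequencing libraries of the central amygdala, a forebrain nucleus of fear, feeding and autonomic control. All 8 came from 129SV mice at 7 months of age, of which 4 libraries followed 20 weeks of high fat diet and 4 followed 20 weeks of normal chow. The libraries carry the title numbers 1, 2, 5 and 8 in each diet, and values by library are listed in that order. The labels do not say that each is a separate animal, so the spread between libraries may in part be technical.

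Library totals ran from 17451162 to 19562429 estimated counts, and values are given as CPM, counts scaled to a common library total, with TMM factors, a correction for composition. The libraries differed within the diets. Chow replicate 1 stood apart on the first principal component, at 97.6 beside -33.2 to 8.58 in the other 7 libraries. Its summed level of 6 choroid plexus markers was 6606 CPM, beside 91.4 to 3116 CPM elsewhere. All 8 central amygdala markers were detected, and their summed level was 420 to 1184 CPM under high fat diet and 511 to 2757 CPM under chow. Ppp1r1b was the largest part of the highest sum, at 1262 CPM in chow replicate 1. Prkcd was at 11.0 to 58.4 CPM, but at 273 CPM in chow replicate 5, where the thalamic markers also summed highest, at 232 CPM. Detection of these markers does not by itself place the dissection. The 10 markers of cortical and basolateral excitatory neurons summed to 1510 to 3458 CPM under high fat diet and 653 to 2564 CPM under chow, where chow replicate 2 was the highest. The 7 oligodendrocyte markers summed to 3937 to 8561 CPM under high fat diet and 3029 to 18669 CPM under chow, where chow replicate 2 was the lowest. Between the diets 0 of the markers passed edgeR's test. All 7 oligodendrocyte (median log2 fold -1.06), 7 striatal (-1.63), 5 thalamic (-2.36), 3 GABAergic (-0.52), 6 microglial (-0.40), 6 choroid plexus (-1.05) and 3 ependymal markers (-1.60) had negative folds, as had 7 of 8 central amygdala markers (-1.10). Positive folds were found for 8 of 10 excitatory (0.83), 5 of 6 pan-neuronal (0.15), 5 of 7 astrocyte (0.082), 2 of 2 oligodendrocyte precursor (0.070) and 2 of 4 endothelial markers (0.059). Over all tested genes, 48.2% of the folds were positive and 51.8% negative. In bulk tissue, fewer cells of a type and less RNA per cell cannot be told apart.

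Reads of the constant exons cannot be assigned to a single gene, and the deposited estimated counts divide them. Over the members, 96.7% of the values were not whole, beside 35.2% over all genes. By cluster it was 97.3% in alpha, 93.2% in beta and 100% in gamma. The beta genes have no constant exons, so values that are not whole are not particular to these exons. In 56 members matched to a GENCODE M21 transcript, the share of 50-base windows, the length of a read, that also occur in another member was 48.2% to 63.9% in the alpha cluster. It was 41.2% to 54.2% in the gamma cluster and 0% to 11.99% in the beta cluster. No window was shared between clusters, with a highest share of 0%. The sum of a cluster therefore does not depend on how reads were divided among its members. The values of single alpha and gamma genes do, and their values are not independent of each other. The same holds, over fewer windows, for beta genes that share windows.

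The gamma cluster held most of the family's RNA. Its share of the summed family count was 73.5% ± 3.49 (SD, n = 8 libraries), that of the alpha cluster 15.3% ± 2.07 and that of the beta cluster 11.2% ± 1.88. The 5 C-type genes alone held 39.2% ± 1.53, and their share stayed between 37.6% and 42.4% in all 8 libraries. Counted per kilobase of the transcript length implied by the deposited FPKM, the shares were 71.9% for gamma, 12.9% for alpha, 15.2% for beta and 37.0% for the C-type genes. Per length, the beta share was thus above the alpha share on average and in the libraries other than chow replicate 1, where it was 9.57% beside 9.95%. In high fat replicate 1 they were nearly level, at 14.4% and 14.2%.

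**Figure D1:**
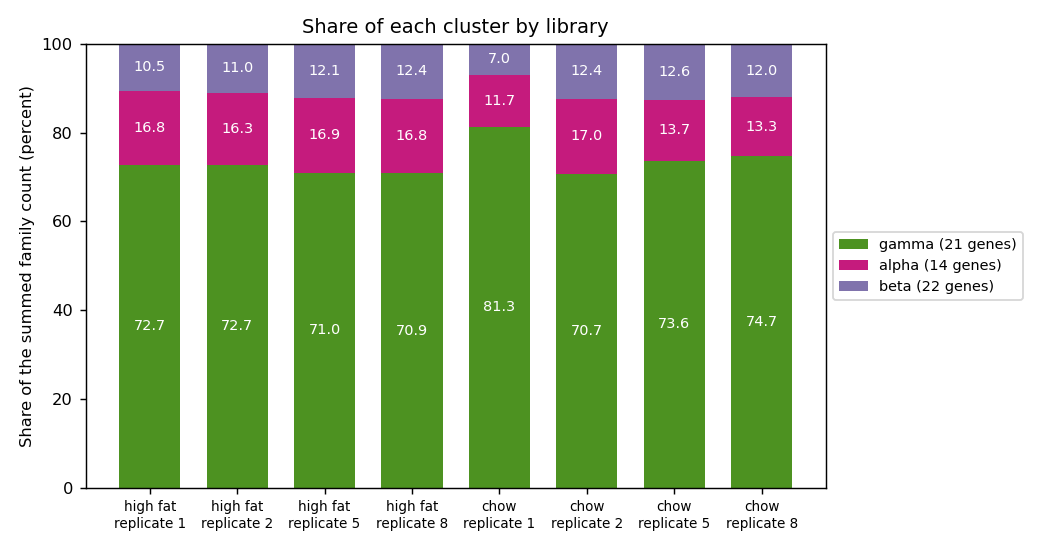
Stacked bars give the percent of the summed clustered protocadherin count held by the gamma, alpha and beta clusters in each of the 8 libraries. The gamma share was 81.3% in chow replicate 1 and 70.7% to 74.7% in the other 7 libraries.

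Per length, 3 C-type genes were the most abundant members. Pcdhgc3, a gamma gene that promotes dendrite arborization, had a level of 32.8 ± 5.23 CPM per kilobase under high fat diet and 36.6 ± 7.15 under chow (mean ± SD, 4 libraries each). Pcdhgc5, whose protein binds GABA-A receptors at synapses, had 33.5 ± 9.76 and 24.5 ± 9.10 CPM per kilobase. Pcdhac2, which serotonergic axons need to spread apart, had 13.6 ± 2.2 and 11.7 ± 2.0 CPM per kilobase. Serotonergic markers themselves were near 0, with Tph2, Slc6a4 and Fev summing to 0.31 to 1.26 CPM.

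Pcdhgc3 and Pcdhgc5 took the first and second place in every library, with Pcdhgc3 above Pcdhgc5 in 4 of 8, so these neighbours did not differ beyond their spread (mean log2 difference in level per length 0.32 ± 0.57, SD, n = 8). Pcdhac2 came next in 7 of 8 libraries and rank 4 in chow replicate 1, where Pcdhga7 passed it. It lay below Pcdhgc5 in 8 of 8 libraries, by 1.13 ± 0.38 on the log2 scale, and above Pcdhga11, the next gene by mean level, in 8 of 8, by 0.58 ± 0.22. Below these the order was loose. Pcdhga11 and Pcdhga7, both gamma A genes, and the C-type gene Pcdhgc4, which is required for the survival of neurons, had mean levels of 8.52, 8.02 and 7.04 CPM per kilobase, and Pcdhgc4 ranked from 4 to 12 over the libraries.

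Among the remaining genes, the gamma genes lay above alpha genes 1 to 12 and above most beta genes. The 12 gamma A genes had a median level of 5.79 CPM per kilobase and a range of 2.79 to 8.52, and the 6 gamma B genes had a median of 3.79 and a range of 2.67 to 6.59. The lowest gamma counts belonged to Pcdhgb4 and Pcdhgb5. Alpha genes 1 to 12 had a median of 1.29 and a range of 0.076 to 2.44. Beta genes overlapped them, with a median of 1.2 and a range of 0.042 to 4.11. Both medians were about the level of Pcdhac1, at 1.33 CPM per kilobase the least abundant C-type gene. The highest of the alpha genes 1 to 12 were Pcdha12 and Pcdha4, at 2.44 and 2.11 CPM per kilobase. Pcdhb9, Pcdhb17 and Pcdhb20 led the beta cluster at 4.11, 3.95 and 3.07 CPM per kilobase, inside the gamma range.

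At the other end, Pcdhb1, the first beta gene, had 0 to 4 counts per library and was at 0 in high fat replicate 1 and chow replicate 1, which allows up to 0.168 and 0.155 CPM (3 counts, counting error only). It was also the only member whose values were all whole and which shared no window with another. Pcdha6 was at 0 in high fat replicate 2 and chow replicates 2 and 8 and reached 1.45 CPM in chow replicate 1. These 2 genes did not pass the filter on low counts, so 55 of the 57 members were tested. Pcdha8 and Pcdhb21 were the next lowest of their clusters, at 0.768 to 2.58 CPM and 0.697 to 1.76 CPM.

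**Figure D2:**
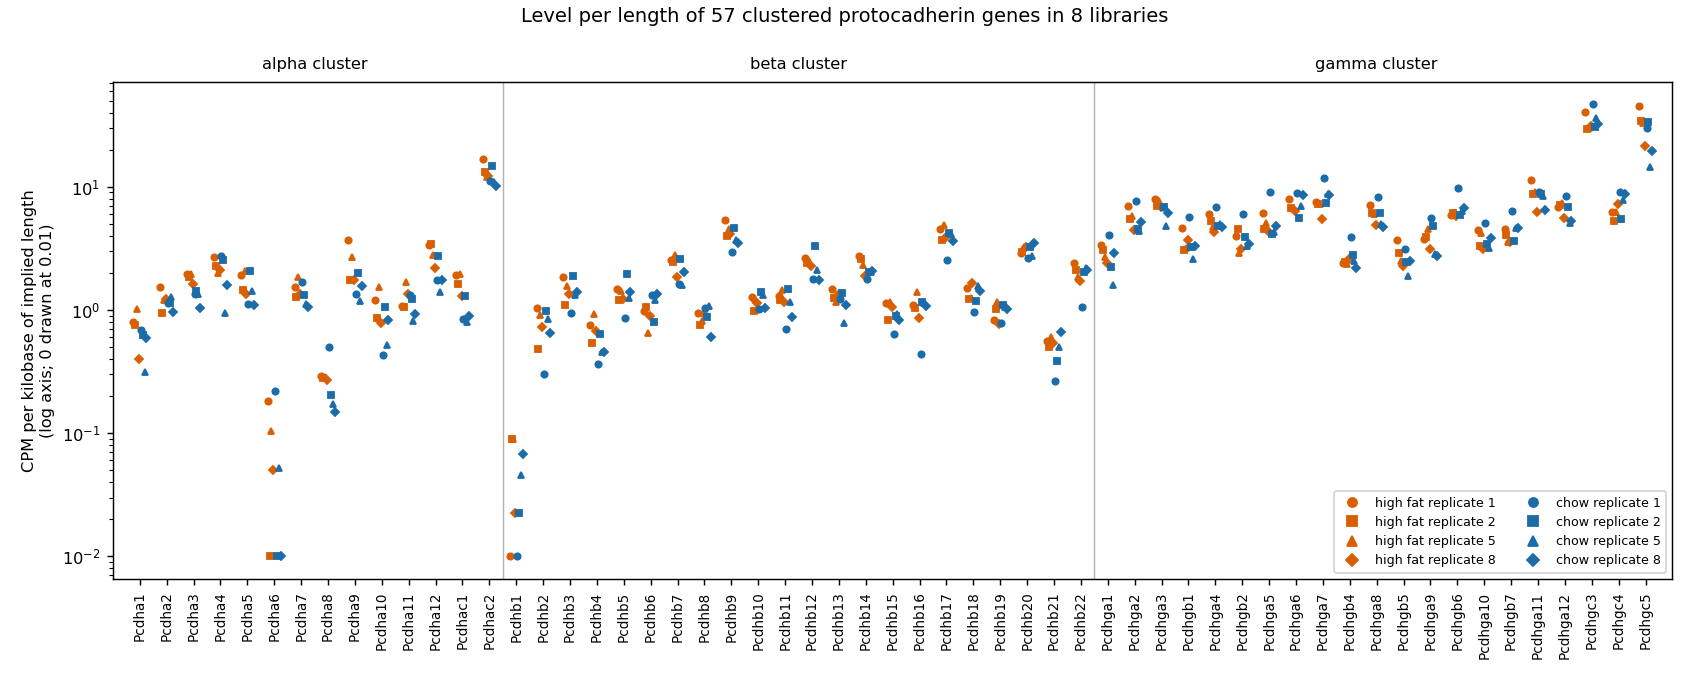
Each point is the level of a gene in a library, in CPM per kilobase of implied transcript length on a log axis, with genes in chromosome order, orange for high fat diet and blue for chow, and symbols for the title numbers. Pcdhgc3, Pcdhgc5 and Pcdhac2 stand above the other members, and Pcdha6 and Pcdhb1 lie lowest, with values of 0 drawn at 0.01.

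The study's comparison asked which genes differ between high fat diet and chow. By edgeR's quasi-likelihood test, 0 of the 55 tested members passed an adjusted p of 0.05, beside 0.00% of the 15186 genes tested, and DESeq2 and limma-voom called 0 members too. At an unadjusted p under 0.05 there were 5 members by each of these 3 tools, beside 649 of all genes by edgeR. Because the family was proposed from this comparison, nothing is read from these counts, and the values that follow describe the libraries.

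Pcdhac1, the lead gene, was at 10.04, 8.46, 10.4 and 6.86 CPM in the high fat libraries. In the chow libraries it was at 4.42, 6.86, 4.21 and 4.66 CPM. High fat replicate 8 and chow replicate 2 thus met at the same value, and the other high fat libraries lay above all chow libraries. The means were 8.93 ± 1.61 and 5.04 ± 1.23 CPM (mean ± SD, 4 libraries each), with a log2 fold, high fat over chow, of 0.83 ± 0.22 (SE). Without chow replicate 2, in which the excitatory markers summed to 2564 CPM beside 653 to 1539 CPM in the other chow libraries, the log2 fold was 1.01. In that fit 0 members passed an adjusted p of 0.05 by edgeR, beside 0.758% of all tested genes, and 10 of 56 members had an unadjusted p under 0.05, beside 2972 of 15303 genes. Without chow replicates 5 and 8 together the log2 fold of Pcdhac1 was 0.67. Chow replicate 2 also had the lowest oligodendrocyte marker sum of the chow libraries, 3029 CPM beside 13038 to 18669 CPM. The part of these cell types in the Pcdhac1 value was not tested.

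As a share of the summed alpha count, Pcdhac1 made up 4.73%, 5.03%, 5.76% and 4.50% in the high fat libraries and 3.08%, 3.89%, 3.45% and 3.78% in the chow libraries. These shares did not overlap between the diets. The share was chosen after its values were seen and, since it uses the same contrast, it is no separate evidence.

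Pcdhac2, the other alpha C-type gene, was at 95.1, 75.5, 68.2 and 69.3 CPM in the high fat libraries and at 63.5, 83.1, 62.1 and 57.5 CPM in the chow libraries. The groups overlapped, under chow replicate 2 above 3 of the high fat libraries, and the log2 fold was 0.21 ± 0.16 (SE). Of the gamma C-type genes, Pcdhgc3 was at 188, 137, 139 and 144 CPM under high fat diet and at 216, 142, 169 and 152 CPM under chow, with a log2 fold of -0.16 ± 0.17. The highest values were those of the replicates numbered 1 in both diets. Pcdhgc4 was at 31.3, 26.3, 31.0 and 36.0 CPM under high fat diet and at 45.6, 27.3, 39.2 and 43.2 CPM under chow, with a log2 fold of -0.32 ± 0.18. In chow replicate 2 it lay within the high fat range, and in the other 3 chow libraries above it. Pcdhgc5 was at 212, 159, 154 and 100 CPM under high fat diet and at 141, 158, 67.1 and 90.7 CPM under chow, with a log2 fold of 0.45 ± 0.31. Its libraries differed 3.16-fold from the lowest to the highest, the widest range of the 5 C-type genes. Single libraries carried much of these folds. Without high fat replicate 1 the log2 fold was 0.093 for Pcdhac2, -0.28 for Pcdhgc3 and 0.27 for Pcdhgc5. Without chow replicate 1 that of Pcdhgc3 was -0.025, without chow replicate 2 that of Pcdhac2 was 0.34, and without chow replicate 5 that of Pcdhgc5 was 0.27. Without chow replicates 5 and 8 together Pcdhac2 had 0.072 and Pcdhgc5 0.066.

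**Figure D3:**
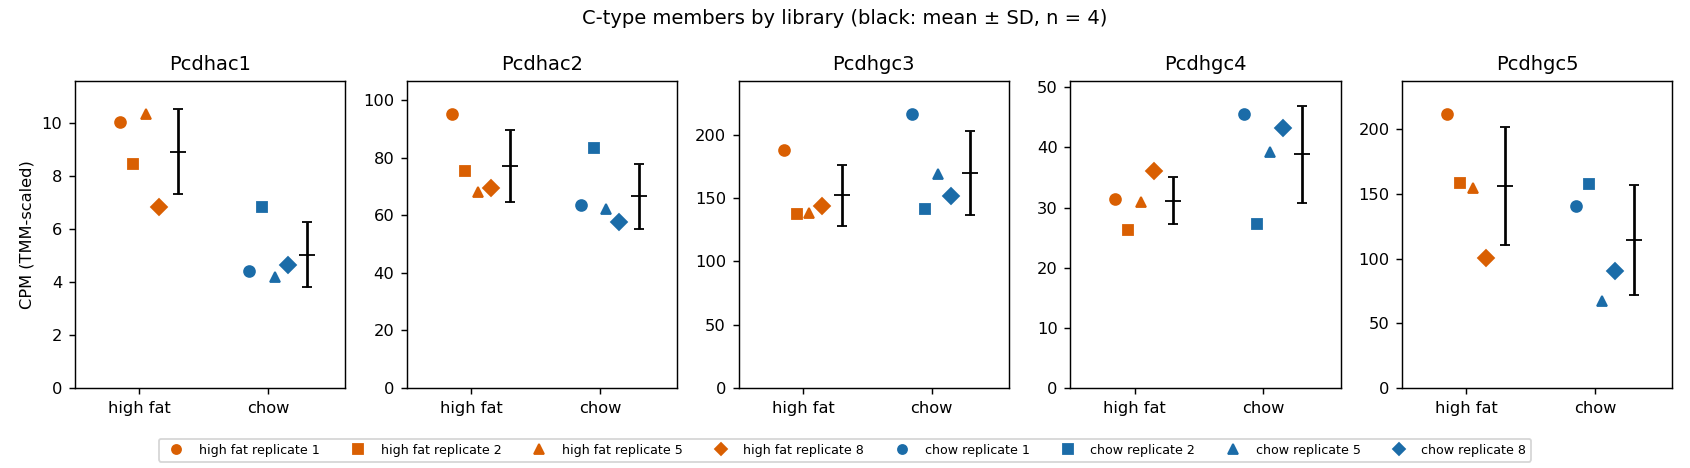
CPM of the 5 C-type genes in each library, with the mean and SD of each diet (n = 4) in black. Pcdhac1 is the only panel in which 3 high fat libraries lie above every chow library, and Pcdhgc5 spans 67.1 to 212 CPM.

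Pcdhgc5 and Pcdhgc3 share the constant exons, and the ratio of their CPM varied within both diets. It was 1.13, 1.15, 1.11 and 0.698 in the high fat libraries and 0.651, 1.11, 0.397 and 0.598 in the chow libraries. High fat replicate 8 thus lay with the lower chow libraries, and chow replicate 2 with the higher high fat libraries. The excitatory marker sums were 3458, 2784, 2324 and 1510 CPM in the high fat libraries and 1539, 2564, 676 and 653 CPM in the chow libraries. Here too high fat replicate 8 was the lowest of its diet and chow replicate 2 the highest. The oligodendrocyte marker sums ran the other way, at 5837, 5934, 3937 and 8561 CPM under high fat diet and 14377, 3029, 18669 and 13038 CPM under chow. Slc17a7, which loads glutamate into vesicles of excitatory neurons, was at 1724, 1217, 1064 and 557 CPM and at 256, 1265, 200.1 and 81.8 CPM. Of the excitatory sum of 1539 CPM in chow replicate 1, the single gene Nrgn made up 1168 CPM. The ratio and Nrgn were chosen after their values were seen, and the part of these cell types in the ratio was not tested.

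**Figure D4:**
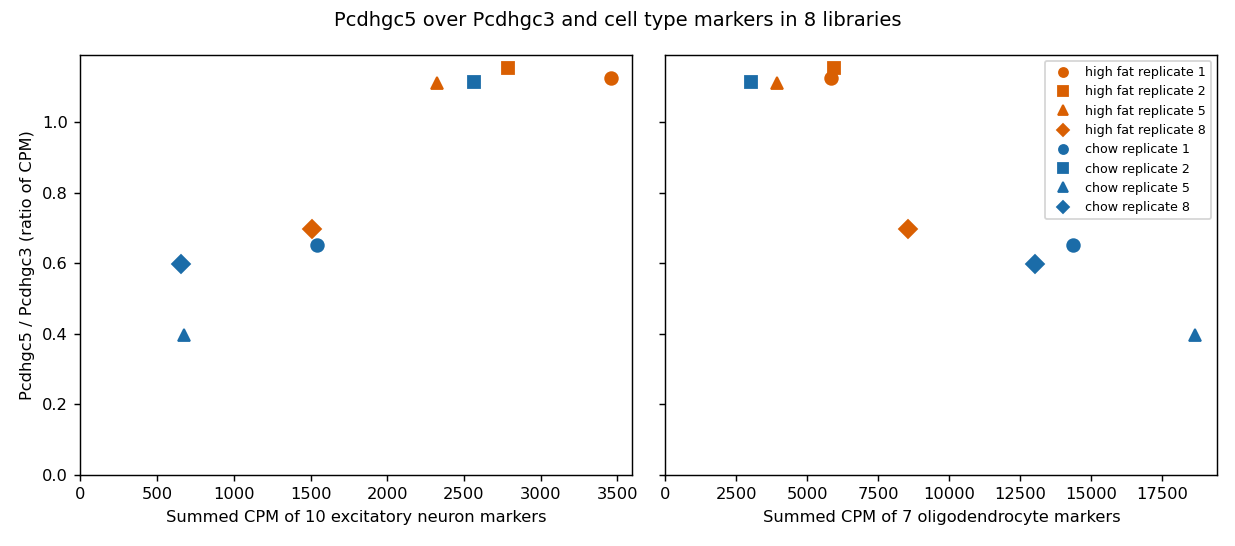
The ratio of Pcdhgc5 to Pcdhgc3 CPM (vertical) against the summed CPM of excitatory neuron markers (left) and oligodendrocyte markers (right), with 1 point for each library. High fat replicates 1, 2 and 5 and chow replicate 2 lie at ratios of 1.11 to 1.15, and the other 4 libraries at 0.397 to 0.698.

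Across the clusters, the log2 folds of the alpha genes were all on the high fat side. Of the 13 tested alpha genes 13 were positive, with a median log2 fold of 0.27 and a range of 0.12 to 0.83, beside a median of -0.012 and 48.2% positive over all tested genes. The summed alpha level was 178 ± 25.3 CPM under high fat diet and 141 ± 25.4 CPM under chow (mean ± SD, 4 libraries each). By library it was 212, 168, 180 and 152 CPM in the high fat libraries and 143, 177, 122 and 123 CPM in the chow libraries, so chow replicate 2 lay among the high fat libraries. The log2 ratio of the means was 0.33, beside a within-diet SD of 0.23 on the same scale, and without chow replicates 5 and 8 together it was 0.16. Without chow replicate 1, 13 of 13 alpha genes were positive, without chow replicate 2, 13 of 14, and without chow replicates 5 and 8 together, 10 of 14. Because these genes share constant exons, their common sign is not 13 separate observations.

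Pcdha3, an alpha gene that was at 8.65 to 10.4 CPM under high fat diet and 5.54 to 7.55 CPM under chow, had a log2 fold of 0.52 ± 0.16 (SE). It was 1 of 2 members, with Pcdhga3, whose 4 high fat libraries all lay above the 4 chow libraries, a pattern seen in 0.639% of all tested genes. Pcdha12 was at 17.6, 18.03, 14.6 and 11.3 CPM in the high fat libraries and at 9.10, 14.4, 7.23 and 9.18 CPM in the chow libraries, with a log2 fold of 0.63 ± 0.24. Here too chow replicate 2 was the highest chow library. Pcdha4, at 10.5 to 14.2 CPM and 4.99 to 14.5 CPM, had 0.21 ± 0.31, and Pcdha8 had 0.13 ± 0.40. Both turned to the other sign without chow replicates 5 and 8, at -0.23 and -0.32, and Pcdha12 then had 0.39. Leaving out chow replicate 5 alone gave -0.023 and -0.014 for Pcdha4 and Pcdha8, and leaving out chow replicate 1 gave 0.41 and 0.68.

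Of the 21 tested beta genes 16 had positive and 5 negative log2 folds, beside 48.2% positive over all tested genes. The median was 0.17 and the range -0.37 to 0.60. The summed beta level was 122 ± 10.3 CPM under high fat diet and 109 ± 18.1 CPM under chow (mean ± SD, 4 libraries each). Chow replicate 1 was the lowest library at 85.0 CPM, and the other 3 chow libraries, at 111 to 129 CPM, lay close to the high fat range of 113 to 133 CPM. Without chow replicate 1, 11 beta genes were positive of 21, and the log2 ratio of the summed level went from 0.16 to 0.050. Pcdhb4, at 1.98 to 3.44 CPM and 1.35 to 2.33 CPM, had the largest beta fold, 0.60 ± 0.27 (SE). Pcdhb9 and Pcdhb14 had 0.29 ± 0.18 and 0.27 ± 0.17. Pcdhb17 and Pcdhb20 had 0.22 ± 0.19 and 0.042 ± 0.15. Without chow replicate 1 Pcdhb9, Pcdhb17 and Pcdhb20 had 0.19, 0.081 and -0.024, and without high fat replicate 1 Pcdhb9 had 0.19.

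The gamma genes did not share a sign, with 7 positive and 14 negative log2 folds among 21 tested, beside 51.8% negative over all tested genes, a median of -0.053 and a range of -0.41 to 0.45. Their summed level was 767 ± 113 CPM under high fat diet and 769 ± 153 CPM under chow (mean ± SD, 4 libraries each). Without chow replicate 1, 14 of the 21 were positive and the log2 ratio of the summed level went from -0.0034 to 0.14. Pcdhga3 was at 36.7, 32.6, 35.7 and 32.0 CPM in the high fat libraries and at 31.7, 31.6, 22.4 and 28.4 CPM in the chow libraries, with a log2 fold of 0.26 ± 0.14 (SE). The closest values of the diets were those of high fat replicate 8 and chow replicate 1. Pcdhga7 went the other way, at 34.9, 33.5, 33.5 and 25.2 CPM under high fat diet and 54.8, 33.9, 40.3 and 39.6 CPM under chow, with -0.41 ± 0.17. Pcdhga11, Pcdhgb4 and Pcdhgb5 had 0.11 ± 0.19, -0.22 ± 0.19 and 0.18 ± 0.21. Leaving out high fat replicate 1 gave -0.035 for Pcdhga11 and 0.029 for Pcdhgb5, and leaving out high fat replicate 8 gave 0.24 and 0.27. Leaving out chow replicate 1 gave 0.30 for Pcdhgb5, -0.030 for Pcdhgb4 and -0.26 for Pcdhga7, and without chow replicate 5 Pcdhga3 had 0.16.

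**Figure D5:**
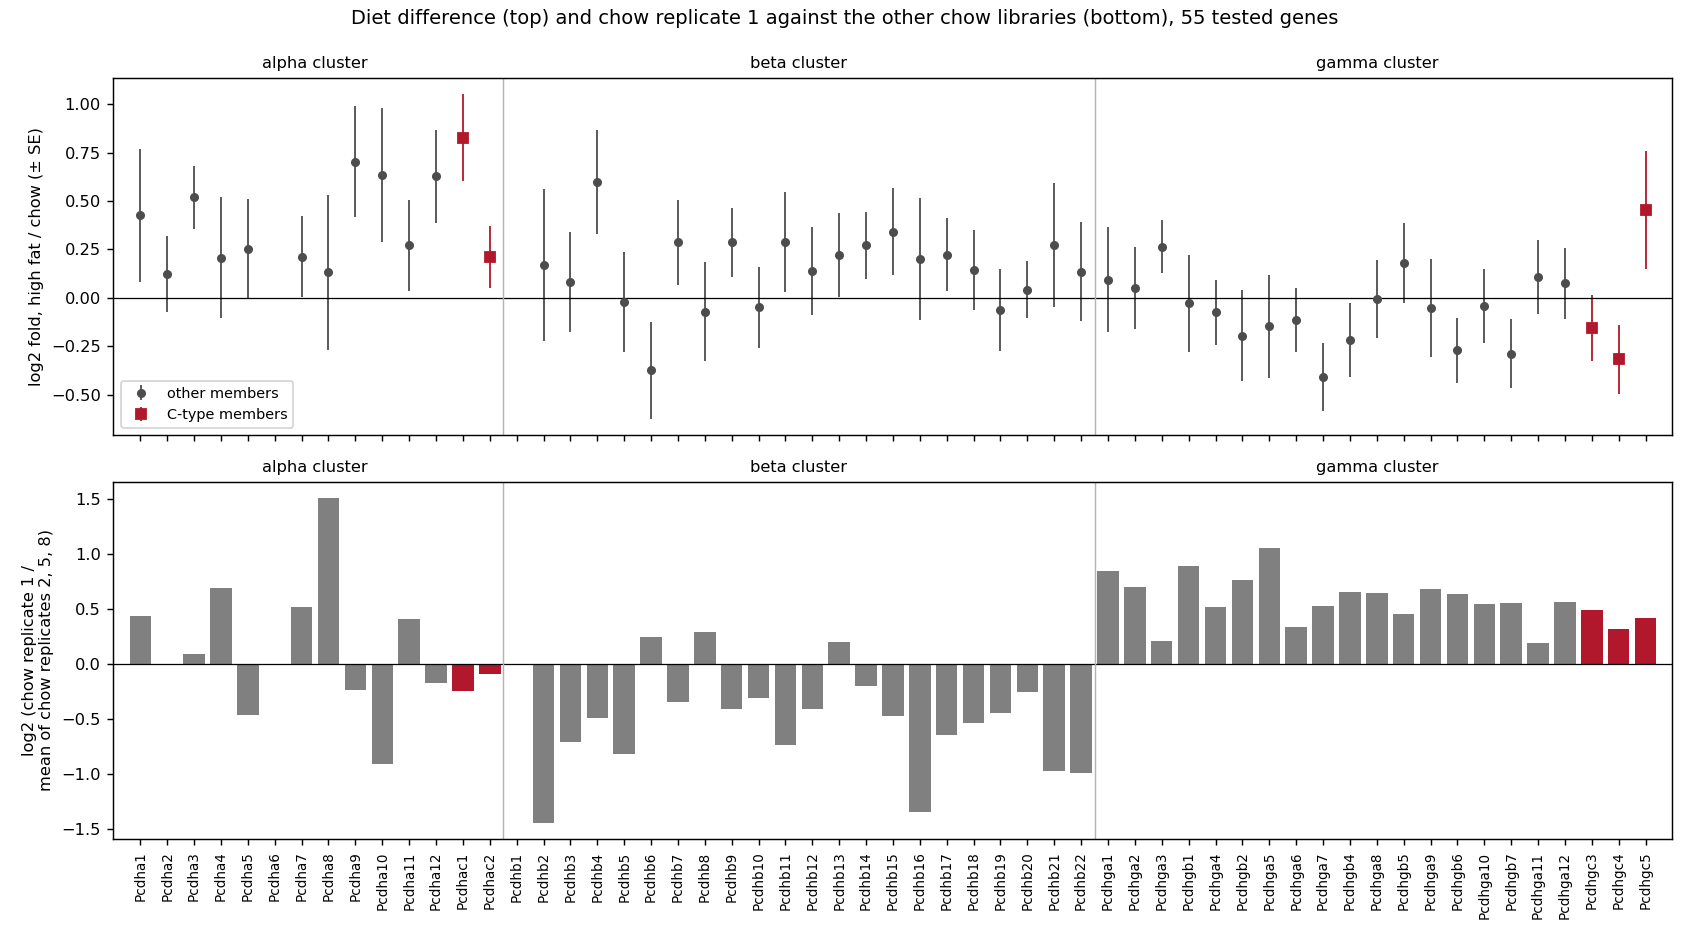
Top, log2 fold of high fat diet over chow with its SE for the 55 tested members in chromosome order, with C-type genes in red. Bottom, log2 ratio of chow replicate 1 to the mean of chow replicates 2, 5 and 8. The alpha folds are all above 0 in the top panel, and in the bottom panel the gamma bars are all above 0 while 18 of 21 beta bars are below it.

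Chow replicate 1 set the clusters apart. In it 21 of 21 gamma genes were above the mean of the other 3 chow libraries, by a median ratio of 1.46 and a range of 1.14 to 2.08. Of the 21 tested beta genes 18 were below it, with a median ratio of 0.72 and a range of 0.367 to 1.23. The 13 tested alpha genes had a median ratio of 1.00, with 7 above 1, and all tested genes together had a median of 0.994. Chow replicate 1 was the highest of the 8 libraries for 17 of 21 gamma genes (81.0%), beside 33.2% of all tested genes. It was the lowest for 14 of 21 beta genes (66.7%), beside 34.0%. The beta share of the family count was 6.95% in it and 10.5% to 12.6% in the other libraries. These counts were made after the library was seen to stand apart. Because the gamma genes share constant exons and all values are of the same library, they are not 21 separate observations.

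Several marker lists were also extreme in chow replicate 1. Choroid plexus epithelium is known to express gamma protocadherins, and Ttr, its transthyretin gene, was at 5794 CPM there and at 71.5 to 2915 CPM elsewhere. High fat replicate 2, with the next highest choroid plexus sum of 3116 CPM, had a summed gamma level of 751 CPM, beside 994 CPM in chow replicate 1 and 645 to 920 CPM in the other high fat libraries. The 3 ependymal markers summed to 159 CPM in chow replicate 1 and 8.22 to 26.7 CPM elsewhere. The sum of the 6 pan-neuronal markers was lowest there, at 3061 CPM beside 3404 to 4914 CPM, but the markers did not move together. Snap25, Syt1, Stmn2 and Elavl4 were lowest in chow replicate 1, and Rbfox3 and Tubb3 were highest, at 242 and 436 CPM. These genes were named after their values were seen. The part of these cell types in the pattern was not tested.

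Genes of the machinery that loops protocadherin promoters to their enhancers were also low in chow replicate 1, as were other lists and 34.0% of all tested genes, for which it was the lowest library. The 11 genes of CTCF and cohesin summed to 459 CPM in chow replicate 1 and 880 to 965 CPM in the other 7 libraries. Ctcf, which binds the promoters and enhancers, was at 62.2 CPM there and 74.4 to 89.1 CPM elsewhere. Nipbl, the loader of cohesin, was at 10.4 CPM beside 52.9 to 66.2 CPM, and Smc3, a cohesin core subunit, at 18.1 CPM beside 53.7 to 67.2 CPM. Rad21, the cohesin kleisin, was less apart at 116 CPM beside 123 to 163 CPM. Nipbl, Smc3 and Rad21 were chosen after their values were seen, and a link of this machinery to the protocadherin values was not tested. Between the diets, 0 of these 11 genes passed the test by edgeR, and 10 were positive, beside 48.2% of all tested genes. Their median log2 fold was 0.17, and Ctcf and Smc1a had 0.19 ± 0.12 and 0.16 ± 0.15 (SE). By sum, however, chow replicates 2, 5 and 8, at 946, 939 and 965 CPM, lay above the high fat range of 880 to 931 CPM. Only chow replicate 1 lay below it.

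Other genes of protocadherin biology also gave no call between the diets. The 6 genes listed for silencing or methylation summed to 258 CPM in chow replicate 1 and 369 to 425 CPM elsewhere. Chow replicates 2, 5 and 8, at 416, 401 and 425 CPM, lay within or just above the high fat range of 369 to 424 CPM. Between the diets 0 of the 6 genes passed and 4 were positive, beside 48.2% of all tested genes. Dnmt1, the maintenance DNA methyltransferase, and Setdb1, a histone methyltransferase, had log2 folds of 0.16 ± 0.13 and 0.14 ± 0.14 (SE). Of 14 genes of intracellular signalling, 0 passed and 11 were positive, beside the same 48.2%. Among them Ptk2b, the kinase PYK2 that alpha and gamma protocadherins inhibit, had 0.73 ± 0.34, and Wasf1, a subunit of the WAVE complex that binds their cytoplasmic parts, had 0.87 ± 0.35. Wasf1 was at 396, 299, 256 and 206 CPM in the high fat libraries and at 126, 284, 103 and 120 CPM in the chow libraries, and chow replicate 2 again lay among the high fat libraries. Of 6 surface partners and proteases, 0 passed and 3 were positive, again beside 48.2% of all tested genes. Nlgn1, a neuroligin, had 0.46 ± 0.35, and Ret, a receptor kinase reported to bind protocadherins, -0.73 ± 0.58.

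The protocadherins outside the clusters were 12 genes, of which 11 were tested and 0 passed. Positive log2 folds were found for 8 of the 11, beside 48.2% of all tested genes. Pcdh20 and Pcdh8 had log2 folds of 1.34 ± 0.52 and 0.52 ± 0.26 (SE). In chow replicate 1 these 12 genes summed to 535 CPM, the lowest of the 8 libraries beside 941 to 1285 CPM, while the gamma cluster was at its highest there.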

How the data were processed

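Per the labels' protocols, poly(A) RNA was primed with random hexamers and read as single-end 50-base reads on a BGISEQ-500. The authors deposited estimated counts per gene and library, with a group mean of expected counts, and group means of FPKM and TPM, per the file headers. The deposited TPM means were set beside the levels, and the deposited FPKM means gave an implied transcript length. The submitters' processing notes name Bowtie2 2.2.5, RSEM 1.2.8 and mm10. Annotation and strandedness were not given in the sources used here. Overlapping or antisense genes may therefore share reads.

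Estimated counts were rounded to whole numbers, filtered by filterByExpr (15186 of 18983 genes kept) and fitted with edgeR 4.0.16 in R 4.3.3, scaled by TMM, two-sided, with Benjamini-Hochberg adjusted p under 0.05 and no covariate. The SE is the log2 fold divided by the root of F. DESeq2 1.42.0 and limma 3.58.1 were alternatives. RefSeq matched 57 members and GENCODE M21 transcripts 56; the longest protein-coding transcript was used. No sequence is shown. The members and lists were chosen with earlier results of these data known. Named were the C-type genes, and in each cluster the 3 members highest per length, the 3 with the smallest p and the 2 with the lowest counts, with 2 genes of each other list. Other genes are said to be chosen after their values were seen. Deviations of same-numbered libraries had correlations of -0.043 to 0.035 for the numbers 1, 2 and 5. For the number 8 it was 0.39, the highest of all pairs. Libraries of different numbers had -0.56 to 0.32, and the title numbers were not used as pairs in the main fit. Libraries of a diet differed beyond sampling noise (chi-square per degree of freedom 16.2 to 198). Counting intervals cover counting error only.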

Additional observations from a re-analysis of the deposited data

Results flagged for a closer look

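In each diet of 4 libraries, the gap between the extreme library and its nearest neighbour was set against the whole range. Of 64 such groups, 7 had a gap over Dixon's 95% critical value for 4 samples. Chance gives about 1 in 20 for separate groups chosen beforehand, a rate that does not apply here. The groups share members and libraries, and some were chosen after their values were seen.

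Pcdhac1 was at 6.86 CPM in chow replicate 2 and at 4.21 to 4.66 CPM in the other chow libraries. Pcdhgc3 was at 188 CPM in high fat replicate 1 and at 137 to 144 CPM in the other high fat libraries. Pcdha8 was at 2.58 CPM in chow replicate 1 and at 0.768 to 1.06 CPM in the other chow libraries. Pcdhb14 was at 6.01 CPM in chow replicate 1, below 6.86 to 6.96 CPM in the others. Pcdhga7 was at 25.2 CPM in high fat replicate 8, below 33.5 to 34.9 CPM in the others. The beta share of the family count was 6.95% in chow replicate 1 and 11.98% to 12.6% in the other chow libraries. The ratio of Pcdhgc5 to Pcdhgc3 was 0.698 in high fat replicate 8 and 1.11 to 1.15 in the other high fat libraries.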

How the results depend on the processing

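Under the 16 alternatives, 0 members passed by any tool or setting, and Pcdhac1 kept a positive log2 fold, from 0.67 to 1.01, with adjusted p from 0.0571 without chow replicate 2 to 0.975. Without 1 library in turn, edgeR called 0 to 116 of all genes, with 116 (0.758%) only without chow replicate 2, and 4 to 14 gamma genes were positive, with 14 without chow replicate 1 and 4 without chow replicate 5. Without chow replicates 5 and 8 together, 3 gamma genes were positive. Per implied length, the alpha, beta and C-type shares were 12.9%, 15.2% and 37.0%. With the title number as a replicate block, 0 genes passed and the log2 fold of Pcdhac1 was 0.84. Pcdha6 and Pcdhb1 had low mean counts, 9.24 and 1.88. Pcdha6 shared 59.5% of its windows with other members, so its counts also depend on how shared reads were divided.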
